A study of Mus musculus with 2 samples.

Results

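The miR-130/301 family was described in C2C12 myocytes. C2C12 is a myoblast line of C3H mice, begun from thigh muscle after a crush, and fuses into muscle cells when differentiation is induced. The family's 4 members, Mir130a, Mir130b, Mir301 (also written Mir301a) and Mir301b, were taken by gene name from the 2202 microRNA genes of the annotation. The study holds 1 group of 2 microRNA libraries, from total RNA of cells differentiated for 72 h, numbered in the labels as biological replicates 1 and 2. No comparison between conditions could be made, undifferentiated cells were not analysed here, and both libraries come from the same cell line. The labels give each replicate its own biosample but not whether they were separate cultures. The spread and the p-values given here therefore measure the difference between these libraries, which may be technical in part.

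A microRNA is cut from a hairpin precursor as a 5p arm and a 3p arm, and the arm that is loaded into an Argonaute protein pairs with messenger RNAs mainly through its seed, bases 2 to 8, and lowers their translation and stability. MicroRNAs with the same seed can act on overlapping sets of messages, which is why miR-130a, miR-130b, miR-301a and miR-301b are treated as a family. Family members are known to repress the adipogenic receptor gene PPARG in human preadipocytes, and miR-130a is known to repress the homeobox genes MEOX2 and HOXA5 in human endothelial cells.

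The genes lie at 3 loci of mm10. Mir130a (ENSMUSG00000065484.1) stands alone on the minus strand, chr2:84741115-84741178, in no annotated gene, 990 bases from Gm19426 and 2459 bases from Ypel4. Mir130b (ENSMUSG00000065572.1, chr16:17124061-17124142) and Mir301b (ENSMUSG00000076288.1, chr16:17124400-17124496) are neighbours 257 bases apart on the minus strand, both in intron 1 of the protein-coding gene 2610318N02Rik. Mir301 (ENSMUSG00000065589.1, chr11:87113004-87113089, plus strand) lies in intron 1 of Ska2, a gene of the spindle and kinetochore complex that holds chromosomes to the spindle in mitosis. Both hosts are transcribed from the same strand as the hairpins they hold.

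The mature 3p arms are shown first, since they carry the seed that defines the family. Sequences are RefSeq's (GRCm38.p6), written 5′ to 3′ with the seed in capitals.
miR-130a-3p: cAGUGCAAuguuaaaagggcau
miR-130b-3p: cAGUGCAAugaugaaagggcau
miR-301a-3p: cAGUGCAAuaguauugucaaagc
The arms are alike at the 5′ end and part after it. Counted from base 1, miR-130a-3p and miR-130b-3p differed at 2 of 22 positions (11 and 13). miR-301a-3p shared its first 9 bases with both of them and differed from miR-130a-3p at 10 of the 22 positions compared and from miR-130b-3p at 11.

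For Mir301b the hairpin is shown, with the 7 seed bases of the family in capitals, beside that of its neighbour Mir130b.
Mir301b hairpin: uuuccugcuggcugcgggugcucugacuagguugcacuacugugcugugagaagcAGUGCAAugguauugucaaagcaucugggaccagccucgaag
Mir130b hairpin: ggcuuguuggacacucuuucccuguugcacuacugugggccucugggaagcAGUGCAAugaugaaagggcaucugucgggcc
The 7 bases AGUGCAA occur 1 time in each of the 4 member hairpins. Bases 56 to 62 of the Mir301b hairpin and bases 52 to 58 of the Mir130b hairpin hold them.

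The 5p arms sort the members in another way, which is why they are shown with their own seeds in capitals.
miR-130a-5p: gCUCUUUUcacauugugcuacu
miR-130b-5p: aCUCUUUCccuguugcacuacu
miR-301a-5p: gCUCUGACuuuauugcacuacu
miR-301b-5p: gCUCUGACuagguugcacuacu
miR-301a-5p and miR-301b-5p have the same seed and differed at 3 of 22 positions (10, 11 and 12). The seeds of miR-130a-5p and miR-130b-5p differ from it and from each other, and these arms differed at 7 of 22 positions. The deposited counts are per hairpin, so nothing in them separates the arms, and a level given here is that of both arms together.

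The libraries differ little in depth. Reads on the sense strand of microRNA genes numbered 9865298 in replicate 2 (53.5% of its 18450359 reads) and 7581366 in replicate 1 (49.4% of its 15349205 reads). Of 9 skeletal muscle markers 7 had at least 10 counts in each library, and together the 9 took 42.8% of assigned counts in replicate 2 and 35.5% in replicate 1. Mir206 carried most of this, with 416794 CPM (counts per 1000000 assigned counts) in replicate 2, against 340841 CPM in replicate 1. The other muscle markers were spread over a wide range. Mir133b had 10568 CPM in replicate 2 and 13610 CPM in replicate 1. In the same order Mir208b had 495 and 260 CPM, Mir499 had 378 and 564 CPM, and Mir486 had 30.7 and 31.1 CPM. The Mir1a and Mir133a genes were low. Mir1a-1 had 2.84 CPM in replicate 2 and 3.03 CPM in replicate 1, and Mir1a-2 had 1.82 and 4.22 CPM. Mir133a-1 and Mir133a-2 did not reach 10 counts in each library. These values cover reads assigned to a gene. Reads that map to several places were held apart, 17.9% of reads in replicate 2 and 22.0% in replicate 1. Their part in the low values was not tested, so the levels of the mature miR-1a and miR-133a are left uncertain. The sum over 5 blood markers, none of them at 0 in both libraries, was 183 CPM in replicate 2, against 105 CPM in replicate 1, and 2 of the 5 had at least 10 counts in each library. The endothelial marker Mir126a had 42.9 CPM in replicate 2 and 217 CPM in replicate 1. The 5 neuronal markers measured had 0.101 CPM in replicate 2 and 0 in replicate 1, with Mir124a-1, Mir124a-3, Mir9-1 and Mir9-2 at 0 in both, and 5 epithelial markers had 2.13 and 4.35 CPM, with Mir200a and Mir429 at 0 in both.

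All 4 members met the minimum of 10 counts per library. The highest, Mir130a, had 2657 times the counts of the lowest, Mir301b, in replicate 2 and 2712 times in replicate 1. Mir130a was abundant, Mir130b and Mir301 were intermediate, and Mir301b was the lowest. Together they took 2.12% of assigned counts in replicate 2 (208868 counts, 95% interval 2.11 to 2.13) and 1.54% in replicate 1 (116902 counts, 1.53 to 1.55), a mean of 1.83% ± 0.407 (SD, n = 2). These intervals cover counting error only, since PCR copies are not independent molecules, and the libraries differed by more than that error. As a share of all reads, unmapped and multi-mapped reads included, the family took 1.13% in replicate 2 and 0.762% in replicate 1.

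Mir130a had 185974 counts (18851 CPM) in replicate 2 and 105772 counts (13952 CPM) in replicate 1, a mean level of 16401 ± 3465 CPM (SD, n = 2). It was the 9th most abundant of 2202 microRNA genes in replicate 2 and the 11th in replicate 1. The median gene among the 314 detected had a mean level of 53.1 CPM. The endothelial marker Mir126a had the lower value in replicate 2, the library with more Mir130a, and its part in the Mir130a level was not tested.

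Mir130b had 19088 counts (1935 CPM) in replicate 2 and 8856 counts (1168 CPM) in replicate 1, a mean of 1551.5 ± 542 CPM (SD, n = 2). It ranked 36th in replicate 2 and 59th in replicate 1. Mir301 had 3736 counts (379 CPM) in replicate 2 and 2235 counts (295 CPM) in replicate 1, a mean of 337 ± 59.3 CPM. It ranked 87th in replicate 2 and 102nd in replicate 1. Both stood above the median detected gene in each library.

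Mir301b had 70 counts (7.10 CPM, 95% interval 5.53 to 8.96) in replicate 2 and 39 counts (5.14 CPM, 3.66 to 7.03) in replicate 1, a mean of 6.12 ± 1.38 CPM (SD, n = 2). Its intervals overlapped between the libraries. The exact binomial test over all detected genes, described below, called no difference at this depth (adjusted p = 0.168). It ranked 229th in replicate 2 and 239th in replicate 1.

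**Figure D1:**
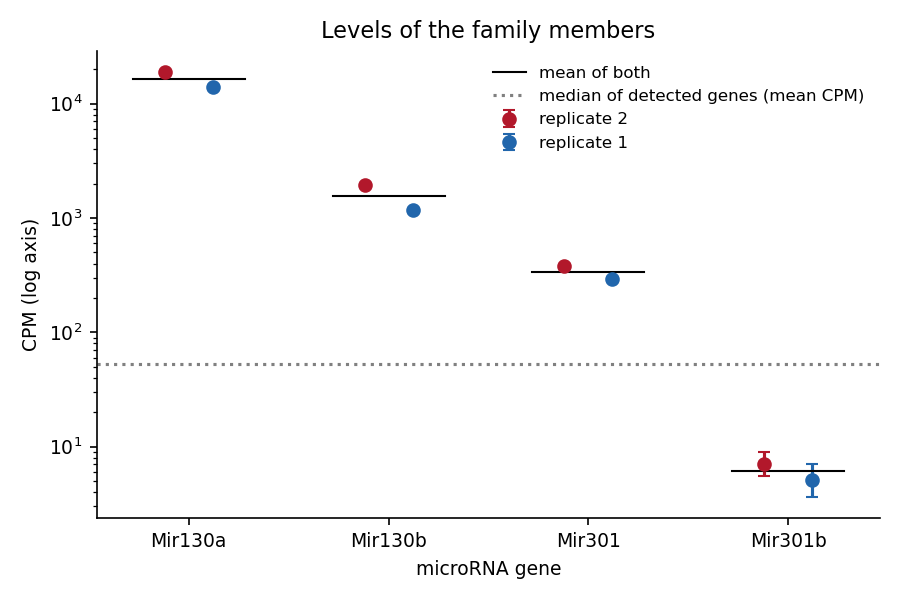
Level of each family member in CPM on a log axis, with points for replicate 2 (red) and replicate 1 (blue), exact 95% counting intervals (visible for Mir301b alone), black lines for the mean of both and a dotted line for the median mean level of the 314 detected genes, 53.1 CPM. Mir130a, Mir130b and Mir301 stand above that line and Mir301b, at 6.12 CPM, below it.

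The order Mir130a, Mir130b, Mir301, Mir301b was the same in both libraries, and no neighbours in it overlapped. The Mir130a count was 9.74 times the Mir130b count in replicate 2 and 11.9 times in replicate 1. Mir130b exceeded Mir301 by 5.11 times in replicate 2 and 3.96 times in replicate 1. Mir301 exceeded Mir301b by 53.4 times in replicate 2 and 57.3 times in replicate 1. A microRNA read is a whole short RNA rather than a fragment of the hairpin. Per 100 bases of hairpin, whose length ran from 64 bases (Mir130a) to 97 (Mir301b), the mean levels were 25627 CPM for Mir130a, 1892 for Mir130b, 392 for Mir301 and 6.31 for Mir301b. Differences in how well each RNA is ligated or amplified were not tested.

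Within the family, Mir130a held nearly all counts. Its share was 89.0% (95% interval 88.9 to 89.2) in replicate 2 and 90.5% (90.3 to 90.6) in replicate 1, a mean of 89.8% ± 1.02 (SD, n = 2). Mir130b made up 9.14% in replicate 2 and 7.58% in replicate 1. Mir301 made up 1.79% and 1.91% in the same order, and Mir301b 0.0335% and 0.0334%. The shares of Mir130a and Mir130b moved by more than 1 percentage point between the libraries. The small shares of Mir301 and Mir301b had little room for such a move, so this does not compare the members.

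The make-up of the family was compared between the libraries by the ratio of each pair of members, which does not depend on library totals. Of the 6 pairs 2 differed by Fisher's exact test (two-sided, adjusted over the 6 pairs), and Mir130b was in both. The ratio of Mir130a to Mir130b in replicate 2 was 0.816 of that in replicate 1 (95% interval 0.794 to 0.838, adjusted p = 3.4e-52 in Fisher's exact test). The ratio of Mir130b to Mir301 in replicate 2 was 1.29 times that in replicate 1 (1.22 to 1.37, adjusted p = 5.6e-17 in Fisher's exact test). Mir130b was thus higher against both other abundant members in replicate 2. The ratio of Mir130a to Mir301 was 1.05 times as high in replicate 2 (0.997 to 1.11, adjusted p = 0.125 in Fisher's exact test). The 3 pairs with Mir301b had adjusted p of 0.533 or more in that test, with intervals from 0.611 at the lowest to 1.80 at the highest, so changes within that range could not be seen with so few Mir301b reads. These tests compare reads of the libraries and not conditions.

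**Figure D2:**
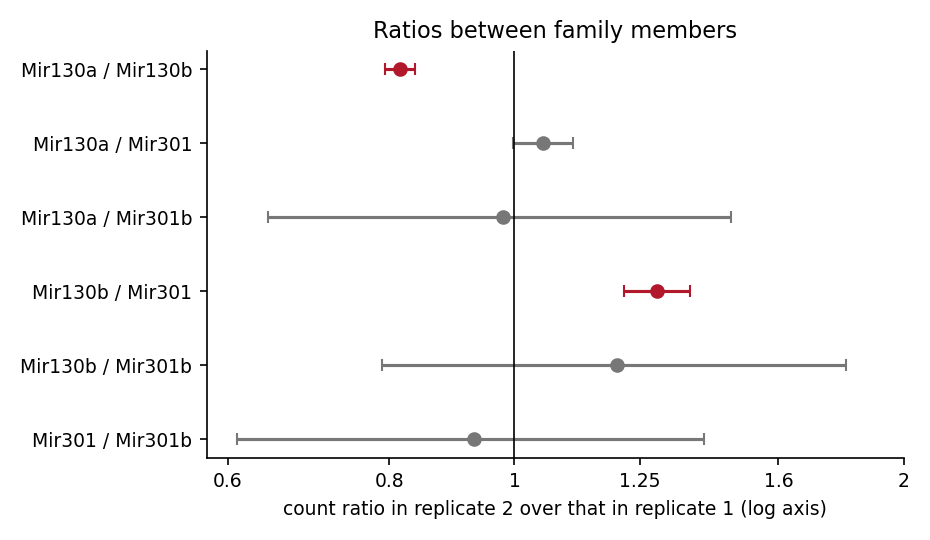
Count ratio of each pair of family members in replicate 2 divided by the same ratio in replicate 1, on a log axis, with exact 95% intervals; red marks pairs with an adjusted p below 0.05 in Fisher's exact test. The interval of Mir130a over Mir130b lies below 1, that of Mir130b over Mir301 above 1, and the other 4 include 1.

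The level of each member was then compared between the libraries in a test over all 314 detected genes. In this test (exact binomial, two-sided, Benjamini-Hochberg adjusted over the 314 genes) 3 of the 4 members differed, against 66.6% of all genes tested, so that a difference by this test is common in these libraries. All 3 were higher in replicate 2, a direction in which 28.3% of all genes tested were called, and none was among the 38.2% called higher in replicate 1. These background numbers move with the scaling: 89 genes were called higher in replicate 2 and 120 in replicate 1 with assigned totals, 99 and 109 with TMM factors, and 102 and 108 with all reads. Mir130a was 1.35 times (log2 0.43) as high in replicate 2 and Mir130b 1.66 times (log2 0.73), each with an adjusted p too small for double precision in the exact binomial test. Mir301 was 1.28 times as high (log2 0.36, adjusted p = 8.9e-21 in the exact binomial test). Mir301b, with 1.38 times (log2 0.46), did not pass the test (adjusted p = 0.168 in the exact binomial test).

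The size of these differences was ordinary for the data. The median absolute log2 ratio was 0.45 over the 4 members and 0.51 over all detected genes, and the members held places 113 (Mir130b), 168 (Mir301b), 178 (Mir130a) and 201 (Mir301) of 314 in order of decreasing absolute ratio. The signed median log2 ratio, replicate 2 over replicate 1, was 0.45 for the members and −0.09 for all detected genes, of which 145 were higher in replicate 2. Scaling to all reads in place of assigned counts adds 0.11 to every log2 ratio, members and other genes alike.

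**Figure D3:**
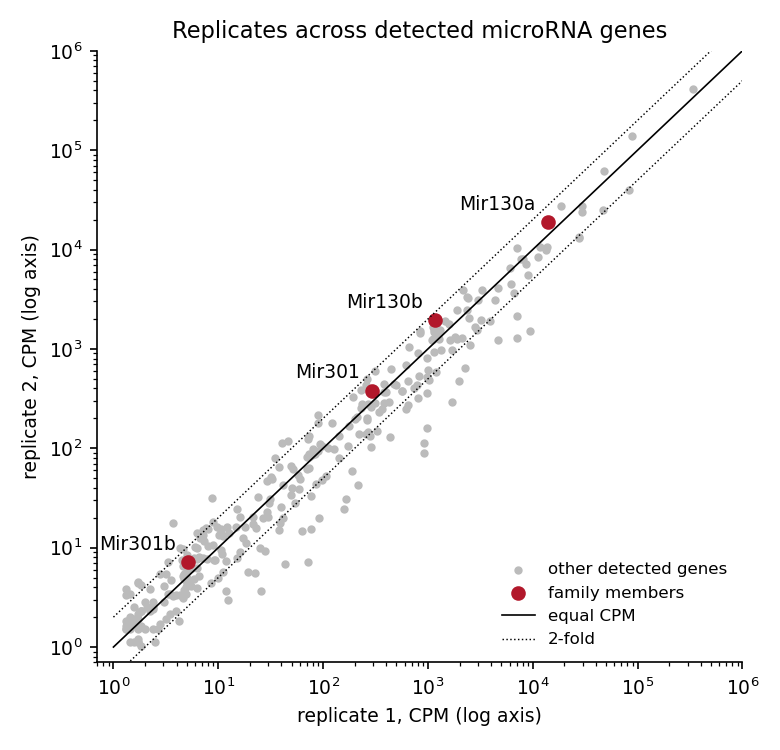
CPM in replicate 2 (vertical) against replicate 1 (horizontal) for the 314 detected microRNA genes on log axes, with family members in red, the solid line at equal CPM and dotted lines at 2-fold. All 4 members lie above the solid line and inside the dotted lines, from 1.28 times (Mir301) to 1.66 times (Mir130b).

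Mir130b and Mir301b share an intron and lie 257 bases apart, and their levels were far apart. Mir130b had 273 counts for each Mir301b count in replicate 2 (95% interval 216 to 350) and 227 in replicate 1 (166 to 320), a mean ratio of 249.9 ± 32.3 (SD, n = 2). For setting, 40 pairs of neighbouring microRNA genes on the same strand were found with a gap of at most 1000 bases and both genes detected. The median ratio of higher to lower mean level over them was 6.54, and Mir130b over Mir301b, with 254, was the 4th most unequal. A ratio of 100 or more was reached by 4 of the 40 pairs. Between the libraries the log2 ratios of Mir130b and Mir301b differed by 0.26, against a median of 0.63 over the 40 pairs. The 95% interval of the change in their ratio, 0.789 to 1.80 times, includes no change. Both genes were higher in replicate 2, as values and without a call for Mir301b, and so were Mir130a and Mir301. In 23 of the 40 pairs both genes went the same way. The window of 1000 bases was chosen after the values were seen.

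Multi-mapped reads, which the tables hold in an entry of their own, made up 17.9% of replicate 2 and 22.0% of replicate 1. The tables are laid out like the gene counts of the STAR aligner, which gives genes uniquely mapped reads alone, but the counter used is not stated. Shared runs of bases were measured on the hairpins, and their part in the level ratios was not tested. The longest run of Mir301b with any of the 2201 other hairpins, on either strand, is 16 bases, with Mir301. The longest run was 17 bases for Mir130a (with Mir6389), 16 for Mir130b (with Mir6368) and 16 for Mir301 (with Mir301b). In the 3 more unequal pairs the lower gene's longest run was 25 bases (Mir29b-1 with Mir29b-2), 26 bases (Mirlet7c-2 with Mirlet7a-1) and 23 bases (Mirlet7c-1 with Mirlet7c-2). Each of the 7 mature sequences printed above for the family was found in the annotated transcripts of its own hairpin gene alone, and miR-301b-3p was not used here. Some matches are inexact: miR-301a-3p fits a stretch of the Mir301b hairpin with 1 mismatch in 23 bases, and miR-130a-3p fits the Mir130b hairpin with 2 in 22. How the authors' counting treated reads with mismatches is not given in the sources used here, and its part in the levels of Mir301 and Mir301b was not tested.

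**Figure D4:**
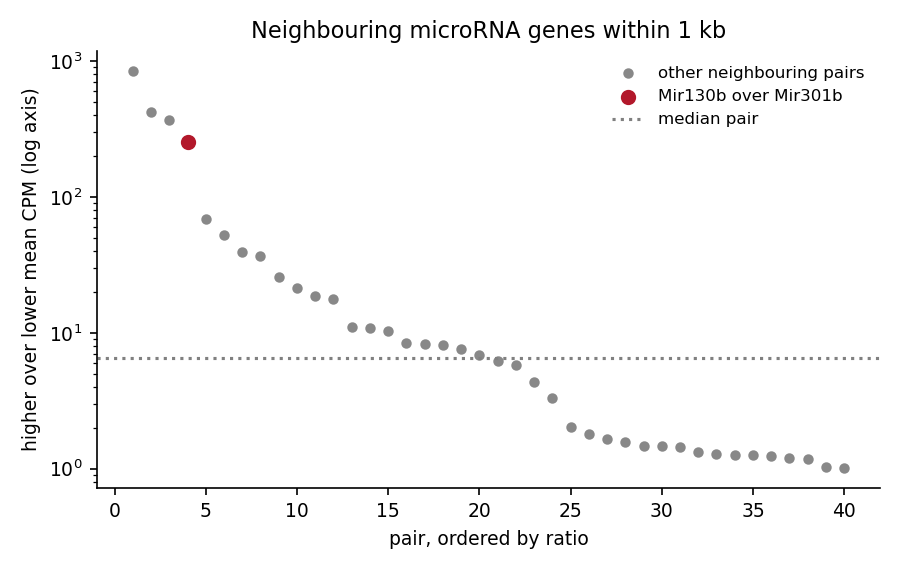
Ratio of the higher to the lower mean CPM, on a log axis, for 40 pairs of neighbouring same-strand microRNA genes with a gap of at most 1000 bases, ordered by ratio; the dotted line is the median, 6.54. Mir130b over Mir301b (red) is the 4th from the left with 254.

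None of the members had reads on the opposite strand in either library, and the counts in the either-strand column were the same as in the sense column for each of them. In each library the member counts therefore came from the strand of the gene, and no overlapping microRNA gene took reads from them.

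The seed AGUGCAA is also carried by 4 mature microRNAs outside the family, and these had no assigned reads. They are shown to compare them with the 3p arms of the members above, with the seed in capitals.
miR-721: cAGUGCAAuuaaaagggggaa
miR-130c: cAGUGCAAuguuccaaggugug
miR-6341: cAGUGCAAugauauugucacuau
miR-6389: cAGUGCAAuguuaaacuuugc
Mir721, Mir130c, Mir6341 and Mir6389 had 0 counts in both libraries. Multi-mapped reads are not in these counts, and whether any came from these genes was not tested. A floor was set at the worth of 3 counts, 0.304 CPM in replicate 2 and 0.396 CPM in replicate 1. It allows for counting error only and is not a strict maximum. In the RefSeq sequences used, AGUGCAA stands at bases 2 to 8 of 7 among 1738 mature entries, miR-301b-3p not among those used, and all reads assigned to the genes of those 7 came from Mir130a, Mir130b and Mir301.

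A further 8 genes make a mature microRNA whose bases 2 to 8 share 6 bases in a row with AGUGCAA. Of these 6 were detected. The median level over all 8, undetected genes included, was 31.1 CPM. The medians of 944 CPM over the 4 members and 53.1 CPM over all detected genes leave undetected genes out, so they are not on the same footing. By mean level Mir350 (683 CPM), Mir152 (456) and Mir148b (178) stood above 53.1 CPM. Mir148a (42.2), Mir19b-1 (20.1) and Mir19a (14.1) stood below it. An example of each kind shows the overlap, with its own seed in capitals.
miR-152-3p: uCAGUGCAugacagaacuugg
miR-19a-3p: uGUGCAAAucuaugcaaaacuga
miR-350-5p: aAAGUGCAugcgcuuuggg
The seed of miR-152-3p, shared by miR-148a-3p and miR-148b-3p, holds the first 6 bases of AGUGCAA 1 base later, as does that of miR-350-5p, and the seed of the miR-19 family holds the last 6 bases 1 base earlier.

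Summed over the 8 genes, their level was 1368 CPM in replicate 2 and 1421 CPM in replicate 1, below Mir130a alone in both libraries and between the values of Mir130b. Mir152 had 599.6 CPM in replicate 2 and 313 CPM in replicate 1, a mean of 456 ± 203 CPM (SD, n = 2). Mir350 went the other way, with 538 CPM in replicate 2 and 827 CPM in replicate 1. Mir148b likewise had 138 and 218 CPM in that order, and Mir148a had 43.0 and 41.4 CPM. Mir19a had 16.1 CPM in replicate 2 and 12.1 CPM in replicate 1. Mir19b-1 had 31.4 and 8.71 CPM, and Mir19b-2, which makes the same mature sequence, had 27 and 7 counts, so a read of that sequence fits both copies and the levels of both are uncertain. Mir291b, of a cluster known from pluripotent stem cells, had 0 counts in both libraries. By the exact binomial test 5 of the 6 detected genes differed between the libraries, 3 of them higher in replicate 2, against 66.6% of all genes tested in either direction.

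**Figure D5:**
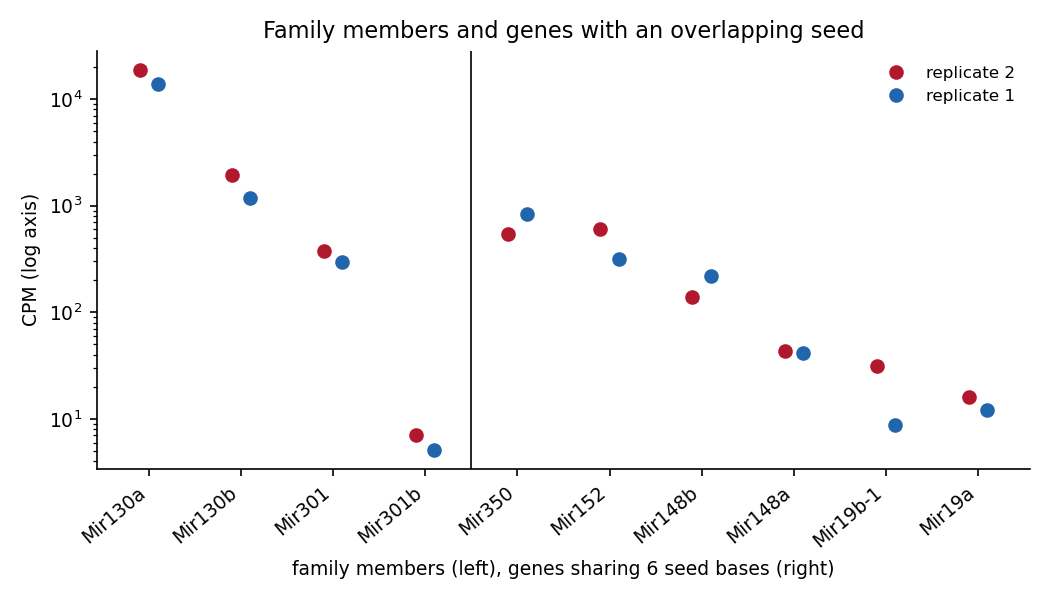
CPM on a log axis in replicate 2 (red) and replicate 1 (blue) for the 4 family members (left of the line) and the 6 detected genes whose seed shares 6 bases in a row with theirs (right). Mir130a and Mir130b exceed all 6 genes on the right in both libraries, and Mir301b is below all 6.

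The genes with levels most like each member's were found by distance in log2(CPM + 1) over the libraries, which with 2 libraries says little beyond a like level and a like ratio. Nearest to Mir130a were Mirlet7b (distance 0.68), the muscle microRNA gene Mir133b (0.84) and Mir99b (0.87), with mean levels of 22969, 12089 and 11168 CPM. Of these Mirlet7b was higher in replicate 2, as Mir130a was, with 27399 CPM in replicate 2 and 18538 in replicate 1. Nearest to Mir130b were Mir181c (0.18), Mir744 (0.22) and Mir615 (0.31), each higher in replicate 2, with 1710, 1678 and 1564 CPM there and 1192, 1105 and 1141 CPM in replicate 1. Nearest to Mir301 were Mir181b-2 (0.28), Mir193a (0.36) and Mir92-1 (0.37), and nearest to Mir301b were Mir7654 (0.17), Mir6923 (0.18) and Mir181b-1 (0.19). A gene of the miR-181 family was thus among the nearest of 3 members.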

How the data were processed

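The 2 libraries of C2C12 myocytes were analysed from deposited tables of whole-number read counts per microRNA gene, which the authors did not normalize as far as the values show. Per the file headers' accompanying notes, reads were placed on mm10 with the GENCODE M21 annotation; adapters were trimmed, per the labels' protocols. Which aligner and counter were used is not given in the sources used here. Sense-strand counts were used. The 4 entries that name no gene (46.5% of reads in replicate 2 and 50.6% in replicate 1) were left out. All 2202 identifiers matched M21, and sequences came from RefSeq (GRCm38.p6), in which all 4 hairpins and 7 mature sequences of the family were found.

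CPM (counts per 1000000 assigned counts), means and SD were computed with pandas 2.3.3. Counts of the 314 genes with at least 10 counts in each library were compared between the libraries by an exact two-sided binomial test (SciPy 1.17.1) with Benjamini-Hochberg adjustment, threshold 0.05. The same code was tested on simulated data. Ratios of 2 members were compared by Fisher's exact test, adjusted over 6 pairs. Intervals are exact (Clopper-Pearson for shares and CPM, conditional for ratios of ratios) at 95%. edgeR 4.0.16 (TMM) and DESeq2 1.42.0 gave alternative scaling only: with 1 group there was no contrast for their tests. The genes with an overlapping seed were found by sequence, with chromosome 18 left out. For each member, the 3 other detected genes with the smallest Euclidean distance in log2(CPM + 1) over the libraries were named. The family was proposed, and its lists and tests chosen, with earlier results of these data known.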

Additional observations from a re-analysis of the deposited data

How the results depend on the processing

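The alternatives gave 73 values of 14 results. In the test between the libraries no member changed direction or crossed the threshold under the settings tried. That test was not run without Mir206 in the denominator. The adjusted p of Mir301b in the exact binomial test was 0.168 in the main setting. It was 0.079 with TMM factors, 0.065 with all reads and 0.250 at a minimum of 1 count. The levels followed their denominator. With all reads as denominator the mean levels were 8485 (Mir130a), 806 (Mir130b), 174 (Mir301) and 3.17 (Mir301b) per 1000000 reads, and the family share was 0.947%. Without Mir206, the most abundant gene, in the denominator they were 26745, 2545, 548 and 9.99 CPM, and the share was 2.98%. With TMM or DESeq2 scaling or either-strand totals, each level and share moved by less than its SD. With 1 replicate left out, a mean is the value of the other library, given above, and either-strand counts of the members equal the sense counts, so neither tests the order or the ratios between members. The number of genes called between the libraries was 209, and from 166 (at least 100 counts) to 227 (at least 1 count) over the alternatives. Mir301b has no value at a minimum of 100 counts. With neighbouring pairs up to 10000 bases apart, a window also chosen after seeing the data, Mir130b and Mir301b were the 5th most unequal of 55 pairs. No paired analysis was possible because the series holds 1 group. The depth limits Mir301b, with 70 and 39 counts, and with 2 libraries each SD rests on 1 difference.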
